A study of Mus musculus with 9 samples.

Results

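This report describes 10 genes of Wnt production and Wnt enhancement in developing midbrain dopamine (DA) neurons, of 47729 genes counted. The genes were 7 Wnt ligands (Wnt7a, Wnt7b, Wnt5a, Wnt5b, Wnt3, Wnt4 and Wnt9a), 2 R-spondins (Rspo2 and Rspo3) and the Wnt carrier Wls. They were listed by symbol, and the symbols were matched to the counts by gene identifier. The list was chosen with the genotype differences of these same libraries already known, and Wnt7a and Wnt7b were selected on that readout. The members' levels, fold changes and p-values are therefore given as a description and no test is read from them.

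RNA was sequenced from YFP-positive cells sorted by flow cytometry from the midbrain of mouse embryos at E15.75 (days of gestation). All groups carried 1 Pitx3-Cre allele, which drives Cre recombinase from the DA neuron gene Pitx3, together with a Rosa reporter that makes YFP after Cre removes a stop cassette, on a C57/Bl6 background. They differed in the number of floxed alleles of Dot1l, the methyltransferase for lysine 79 of histone H3 (H3K79). Dot1l(+/+) had 0 floxed alleles (3 libraries), Dot1l(fl/+) had 1 (3 libraries) and Dot1l(fl/fl) had 2 (2 libraries). The labels name a further Dot1l(fl/fl) library, which was not analysed here. The study's methods state that embryos were pooled for each library and that Cre acts on a single exon of Dot1l. They also state that a litter gave an embryo of each genotype, so pools of different genotype can share litters, but not that the library number marks such a pairing. The sort was set to take cells with a Pitx3-Cre history, and markers of other cells were nonetheless present in every library.

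Wnt ligands are secreted, lipid-modified proteins. Porcn attaches the lipid to a conserved serine, Wls then carries the ligand to the cell surface, and Frizzled receptors with Lrp5 or Lrp6 receive it and stabilise beta-catenin. Wnt5a more often signals without beta-catenin, through Ror receptors and cell polarity proteins. R-spondins do not replace Wnt: they bind Lgr receptors and the ubiquitin ligases Znrf3 and Rnf43, which keeps Frizzled at the surface. In the ventral midbrain, Wnt1 supports DA progenitors, and Wnt5a supports differentiation and axon growth of DA neurons.

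The coding stretch around the lipid-bearing serine is shown for the 7 ligands, since it is the feature they share as Wls and Porcn substrates and it shows how far close relatives differ. The sequences are from GENCODE M21 transcripts on GRCm38, 5′ to 3′ in the sense of the gene, and capitals mark the serine codon.
Wnt7a: tgtaagtgccatggtgtgTCAggctcctgt
Wnt7b: tgtaagtgtcacggtgtgTCAggctcctgt
Wnt5a: tgtaagtgtcatggagtgTCTggctcctgt
Wnt5b: tgcaaatgtcacggagtcTCCgggtcctgc
Wnt3: tgtaaatgccacgggttgTCCggcagctgc
Wnt4: tgcaagtgtcacggggtgTCGggctcctgc
Wnt9a: tgcaaatgccatggtgtgTCTggctcctgc

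The stretch lay in exon 4 of Wnt7a (chr6:91366272-91366301, minus strand), Wnt7b (chr15:85537812-85537841, minus strand), Wnt3 (chr11:103812308-103812337, plus strand) and Wnt9a (chr11:59330920-59330949, plus strand). It lay in exon 5 of Wnt5a (chr14:28522509-28522538, plus strand), Wnt5b (chr6:119433800-119433829, minus strand) and Wnt4 (chr4:137296339-137296368, plus strand). The serine was codon 206 of 349 in Wnt7a and codon 213 of 356 in Wnt7b, and the stretches of these 2 genes differed at 2 of 30 bases. Wnt5a and Wnt5b differed at 7 of 30.

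Near-identical genes can share reads, and how the counting treated such reads was not given in the sources used here. Over whole coding sequences, the longest run shared by Wnt7a and Wnt7b had 23 bases and spanned the serine codon, again in capitals.
Wnt7a and Wnt7b: ggtgtgTCAggctcctgtaccac
The longest run shared by Wnt5a and Wnt5b had 29 bases and lay elsewhere in the coding sequence.
Wnt5a and Wnt5b: atggacggctgcgagctcatgtgctgtgg

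No 50-base window of a Wnt coding sequence occurred in a transcript of another gene on either strand. Outside the coding sequence, 178 of the 4107 windows of the Wnt4 transcripts (4.33%) also occurred in transcripts of many other genes on both strands, so Wnt4 counts can include or lose reads shared with them. Wnt5a shared windows with Cxcl3, Mcf2l and Vip, and Wls 10 of 8836 with 3 other genes. Further shared sequence came from antisense transcripts. AU022754 overlaps Wnt7b by 324 exonic bases and had 2 to 70 counts per library, against 2021 to 4863 for Wnt7b. Gm2670 overlaps Wnt5a by 358 exonic bases and had 1 to 28 counts, against 2299 to 10797 for Wnt5a. Gm48159 overlaps Rspo3 by 404 exonic bases, and it was not analysed here. The kit kept strand, but the strand setting of the counting was not given in the sources used here, so the split of reads between Rspo3 and its antisense gene is uncertain.

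Library totals ranged from 13616922 to 43674673 counts, and both Dot1l(fl/fl) libraries were shallower than the rest. Levels are given as CPM, which are counts scaled by library total and TMM factor. A count of 3, the limit that a count of 0 allows, was 0.0687 to 0.2203 CPM and covers counting error only. Dot1l itself was at 105, 84.6 and 94.6 CPM in Dot1l(+/+) 1 to 3, at 75.5, 65.6 and 76.2 CPM in Dot1l(fl/+) 1 to 3, at 64.9 CPM in the library labelled fl/fl 1 and at 99.1 CPM in the library labelled fl/fl 2. That last library was inside the Dot1l(+/+) range, and the library labelled fl/fl 1 was below it. Counts were per gene and included exons that Cre leaves in place, so they neither measure the deletion nor check a label. The fold changes printed for single genes in Dot1l(fl/fl) are therefore followed by their values without this library.

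The defining markers of the sorted cells were present in every library. The 14 DA neuron markers summed to 7270 to 8239 CPM in Dot1l(+/+), 7166 to 7689 in Dot1l(fl/+) and 5846 to 6964 in Dot1l(fl/fl). In Dot1l(fl/fl), Th, Slc18a2, Ddc, Nr4a2, En1, En2, Foxa1, Foxa2 and Ret were below every Dot1l(+/+) library. Slc6a3, Pitx3, Lmx1a, Lmx1b and Aldh1a1 overlapped Dot1l(+/+). Of all 17988 tested genes, 23.7% did not overlap between these 2 genotypes. Slc6a3 was at 767.9, 613.4 and 606.9 CPM in Dot1l(+/+) and at 826 and 621.5 CPM in Dot1l(fl/fl). In bulk samples, fewer cells of a type and less RNA per cell cannot be told apart. Of the lists for other cells, the sum of the 6 GABAergic markers was also non-overlapping, at 203.6 to 224.8 CPM in Dot1l(+/+) and 235.1 to 264 in Dot1l(fl/fl), with 195.7 to 230.9 in Dot1l(fl/+). Of its genes only Slc32a1, the vesicular GABA transporter, was higher without overlap, at 112.7, 108.3 and 110 CPM in Dot1l(+/+) and 156 and 129.3 CPM in Dot1l(fl/fl), while Gad1, Gad2, Gata2, Gata3 and Tal1 overlapped or were lower. The 6 endothelial markers summed to 4.9 to 8.33 CPM in Dot1l(+/+), 4.37 to 14.6 in Dot1l(fl/+) and 9.14 to 11.8 in Dot1l(fl/fl), which was above Dot1l(+/+) and inside the Dot1l(fl/+) range.

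The remaining lists overlapped between Dot1l(+/+) and Dot1l(fl/fl). Over all 8 libraries, radial glia and progenitor markers summed to 222.6 to 263.7 CPM, floor and roof plate markers (which share Lmx1a with the DA list) to 368 to 514.2, glutamatergic markers to 191 to 241.2, and microglial markers to 67.2 to 96.4. Astrocyte and oligodendrocyte precursor markers summed to 11.6 to 24.1 CPM, blood markers to 11.95 to 33.4, pericyte and meningeal markers to 1.93 to 7.49, and serotonergic markers to at most 2.7. Wnt1, a floor and roof plate marker, had 0 counts in all libraries. The part of the DA, GABAergic and endothelial marker levels in the Wnt differences below was not tested.

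**Figure D1:**
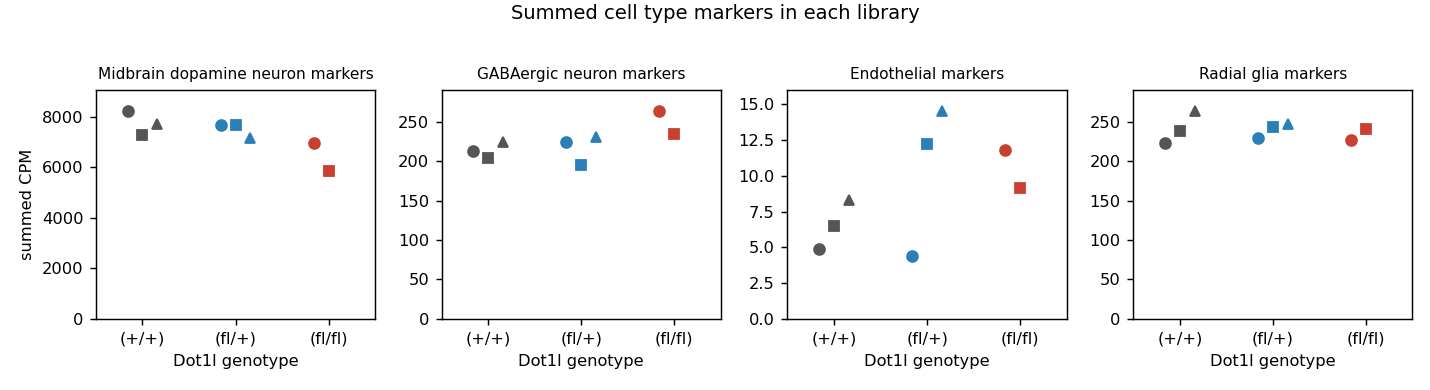
Summed CPM (vertical axis, from 0) of 4 cell type marker lists in each library (points) by Dot1l genotype. The DA neuron sum was lower and the GABAergic sum higher in both Dot1l(fl/fl) libraries than in the 3 Dot1l(+/+) libraries, while the radial glia sums stayed between 222.6 and 263.7 CPM.

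In Dot1l(+/+) neurons, Wnt5a and Wnt7b stood far above the other members. To compare genes, CPM was divided by the exon length in kilobases. Wnt5a was at 28.8 ± 2.8 CPM per kilobase (SD, n = 3) and Wnt7b at 22.4 ± 2.1, and their libraries did not overlap. Wnt7a followed at 4.29 ± 0.52 CPM per kilobase. Of 17925 tested genes with an exon length, 88.7% lay below Wnt5a, 85.1% below Wnt7b and 52.1% below Wnt7a.

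A middle tier was made of Wls at 3.47 ± 0.53 CPM per kilobase, Wnt4 at 3.46 ± 0.33 and Wnt3 at 2.26 ± 0.36 (SD, n = 3). Wls overlapped both Wnt7a and Wnt4, and with library totals alone in place of TMM it no longer overlapped Wnt7a. Wnt9a (1.05 ± 0.45), Rspo2 (1.04 ± 0.26), Wnt5b (0.73 ± 0.25) and Rspo3 (0.69 ± 0.22) formed the lowest tier, and each overlapped its neighbour in the order. At this depth their order was not resolved. Rspo3, the lowest, exceeded 25.7% of tested genes.

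The files held 19 Wnt ligand genes. Their length-scaled levels summed to 59.6 to 69.6 CPM per kilobase in the 6 Dot1l(+/+) and Dot1l(fl/+) libraries, and to 79.8 and 65.3 in the libraries labelled fl/fl 1 and 2. Wnt5a and Wnt7b together made up 73.9% to 79.3% of this sum over all 8 libraries. The share of Wnt5a was 41.9%, 44.5% and 46.1% in Dot1l(+/+), 38.8%, 38.8% and 37.7% in Dot1l(fl/+), and 29.5% and 32.4% in Dot1l(fl/fl). The share of Wnt7b was 36.1%, 33.7% and 33.1% in Dot1l(+/+), 40.5%, 35.1% and 38% in Dot1l(fl/+), and 44.9% and 45.5% in Dot1l(fl/fl). Each Dot1l(fl/fl) library had a lower Wnt5a share and a higher Wnt7b share than any library of the other genotypes. The 2 shares are parts of the same sum, so they are not independent of each other.

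**Figure D2:**
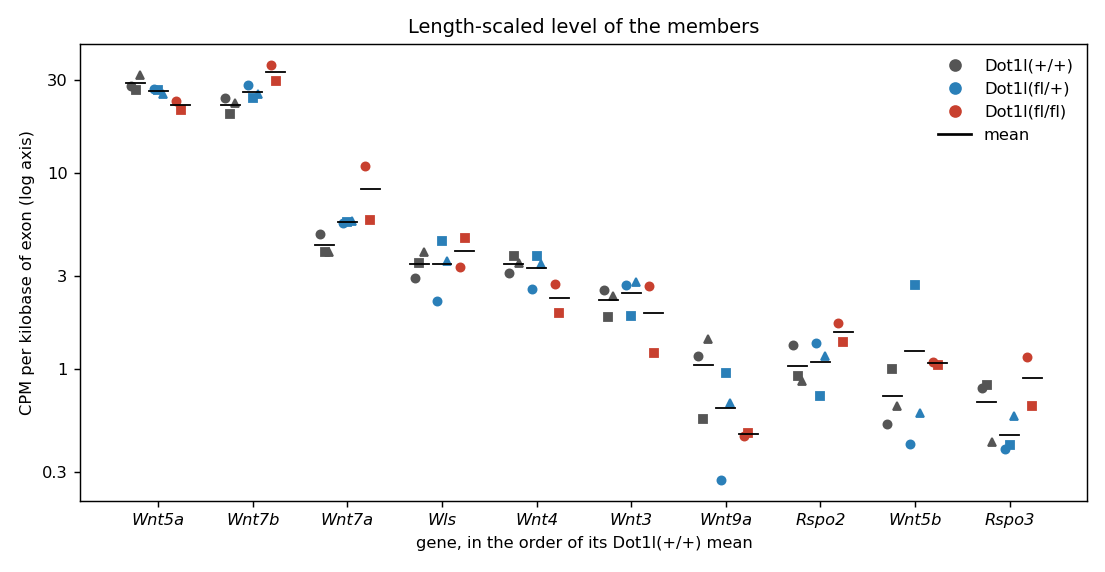
CPM per kilobase of exon (log axis) for each member in each library, coloured by genotype, with genes in the order of their Dot1l(+/+) mean (bars are group means). Wnt5a and Wnt7b lie above 20 CPM per kilobase in every library, and the order of these ligands differs between Dot1l(+/+) and Dot1l(fl/fl).

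Per kilobase of exon, the leading ligand differed between Dot1l(+/+) and Dot1l(fl/fl), while Wnt5a and Wnt7b overlapped in Dot1l(fl/+). Which ligand led rested on the exon lengths, 7823 bases for Wnt5a and 4898 for Wnt7b. In CPM, Wnt5a was above Wnt7b in every library. The ratio of Wnt7b to Wnt5a per kilobase within a library, which does not depend on library scaling, was 0.862, 0.757 and 0.72 in Dot1l(+/+) 1 to 3. It was 1.04, 0.906 and 1.01 in Dot1l(fl/+) 1 to 3. In the libraries labelled fl/fl 1 and 2 it was 1.52 and 1.4. The ranges of the 3 genotypes did not overlap, and Dot1l(fl/+) lay between the others. Wnt7b was selected on its genotype difference, so this order is a description, and ratios of other genes were not examined for comparison. In Dot1l(fl/fl), Wnt7b was at 35.8 and 29.7 CPM per kilobase and Wnt5a at 23.5 and 21.2. The ratio of Wnt7a to Wnt7b showed no such order, at 0.174 to 0.203 in Dot1l(+/+), 0.197 to 0.234 in Dot1l(fl/+), and 0.305 and 0.195 in Dot1l(fl/fl).

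Wnt7b (ENSMUSG00000022382, chr15:85535437-85582473, minus strand) encodes a ligand best known for beta-catenin signalling to brain blood vessels. It was at 118.3, 98.3 and 112.5 CPM in Dot1l(+/+) 1 to 3, at 138.1, 118.4 and 125.2 CPM in Dot1l(fl/+) 1 to 3, and at 175.5 and 145.5 CPM in the libraries labelled fl/fl 1 and 2. Each Dot1l(fl/fl) library was above each library of the other genotypes, and the lowest Dot1l(fl/+) library was only just above the highest Dot1l(+/+) library. Relative to Dot1l(+/+), Wnt7b had a log2 fold change of 0.55 ± 0.12 (SE) in Dot1l(fl/fl) and 0.21 ± 0.11 in Dot1l(fl/+), and Dot1l(fl/fl) differed from Dot1l(fl/+) by 0.34 ± 0.12. Without the library labelled fl/fl 2 the values of Dot1l(fl/fl) were 0.68 against Dot1l(+/+) and 0.46 against Dot1l(fl/+), and without Dot1l(fl/fl) 1 they were 0.41 and 0.19.

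Wnt7a (ENSMUSG00000030093, chr6:91363981-91411363, minus strand) is the close relative of Wnt7b and is also known for synapse assembly. Its Dot1l(+/+) libraries were at 15.5, 12.6 and 12.7 CPM. Its Dot1l(fl/+) libraries lay within a narrow band at 17.6, 18 and 18.1 CPM. The library labelled fl/fl 1 stood alone at 34.7 CPM, while the library labelled fl/fl 2, at 18.4 CPM, was just above the Dot1l(fl/+) band. Wnt7a differed from Dot1l(+/+) by a log2 fold change of 0.97 ± 0.23 (SE) in Dot1l(fl/fl) and of 0.40 ± 0.21 in Dot1l(fl/+), and Dot1l(fl/fl) differed from Dot1l(fl/+) by 0.57 ± 0.23. A single library set the size of these values. Without Dot1l(fl/fl) 1 they were 0.43 against Dot1l(+/+) and 0.03 against Dot1l(fl/+), and without the library labelled fl/fl 2 they were 1.35 and 0.95.

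Wnt5a (ENSMUSG00000021994, chr14:28504750-28527448, plus strand), the ligand of DA neuron differentiation and of beta-catenin-independent signalling, had the opposite order. It was at 219.2, 207.4 and 249.7 CPM in Dot1l(+/+) 1 to 3, at 211.1, 208.8 and 198.1 CPM in Dot1l(fl/+), and at 183.9 and 165.5 CPM in Dot1l(fl/fl). Both Dot1l(fl/fl) libraries were below all others, and Dot1l(fl/+) overlapped Dot1l(+/+). Against Dot1l(+/+) it gave -0.37 ± 0.11 (log2 fold change, SE) with 2 floxed alleles and -0.13 ± 0.10 with 1, and Dot1l(fl/fl) differed from Dot1l(fl/+) by -0.24 ± 0.11. Both values of Dot1l(fl/fl) were smaller without the library labelled fl/fl 2, at -0.29 and -0.16, and larger without Dot1l(fl/fl) 1, at -0.45 and -0.32.

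Wnt4 (ENSMUSG00000036856, chr4:137277489-137299726, plus strand), a ligand with roles in gonad and kidney development and in axon guidance, was at 13.1, 15.9 and 14.6 CPM in Dot1l(+/+) 1 to 3. It was at 10.8, 15.9 and 14.5 CPM in Dot1l(fl/+) and at 11.4 and 8.135 CPM in Dot1l(fl/fl). The Dot1l(fl/fl) libraries lay below Dot1l(+/+), and one of them was inside the Dot1l(fl/+) range. For Wnt4 in Dot1l(fl/fl), the log2 fold change from Dot1l(+/+) was -0.57 ± 0.25 (SE). It was -0.35 without the library labelled fl/fl 2 and -0.84 without Dot1l(fl/fl) 1. With 1 floxed allele it was -0.08 ± 0.22.

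Wnt9a (ENSMUSG00000000126, chr11:59306928-59333552, plus strand) is a ligand known from joint and blood stem cell development. It was at 3.9, 1.85 and 4.76 CPM in Dot1l(+/+) 1 to 3, at 0.907, 3.2 and 2.25 CPM in Dot1l(fl/+), and at 1.53 and 1.58 CPM in Dot1l(fl/fl). Both Dot1l(fl/fl) values lay below the Dot1l(+/+) libraries but inside the Dot1l(fl/+) range. These levels rested on 22 to 206 counts per library. The log2 fold change in Dot1l(fl/fl) against Dot1l(+/+) was -1.17 ± 0.62 (SE), and it was -1.20 without the library labelled fl/fl 2.

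Wnt3 (ENSMUSG00000000125, chr11:103774150-103817957, plus strand), a beta-catenin-activating ligand of the embryonic body axis, gave no order by genotype. Its levels were 7.84, 5.72 and 7.31 CPM in Dot1l(+/+), 8.27, 5.76 and 8.54 CPM in Dot1l(fl/+), and 8.14 and 3.74 CPM in Dot1l(fl/fl). The highest and the lowest Dot1l(fl/fl) values bracketed all Dot1l(+/+) libraries. The log2 fold change in Dot1l(fl/fl) against Dot1l(+/+) was -0.22 ± 0.35 (SE), and without the library labelled fl/fl 2 it was 0.23.

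Wnt5b (ENSMUSG00000030170, chr6:119432531-119544347, minus strand), the paralogue of Wnt5a, was scarce. Its levels were 1.39, 2.68 and 1.74 CPM in Dot1l(+/+), 1.11, 7.17 and 1.58 CPM in Dot1l(fl/+), and 2.9 and 2.81 CPM in Dot1l(fl/fl). One library, Dot1l(fl/+) 2, held 204 of the gene's counts where the others held 33 to 94. Its log2 fold change in Dot1l(fl/+) against Dot1l(+/+) was 0.76 ± 0.57 (SE) and became -0.52 without that library. With 2 floxed alleles it was 0.56 ± 0.64, and 0.58 without the library labelled fl/fl 2.

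Rspo2 (ENSMUSG00000051920, chr15:43020794-43170826, minus strand) had the higher mean per kilobase of the R-spondin members in each genotype. It was at 6.83, 4.73 and 4.44 CPM in Dot1l(+/+) 1 to 3, at 6.99, 3.73 and 5.98 CPM in Dot1l(fl/+), and at 8.8 and 7.06 CPM in Dot1l(fl/fl). The lower Dot1l(fl/fl) library lay just above the highest libraries of both other genotypes. Rspo2 in Dot1l(fl/fl) had a log2 fold change of 0.58 ± 0.35 (SE) against Dot1l(+/+) and of 0.51 ± 0.35 against Dot1l(fl/+), and these were 0.73 and 0.66 without the library labelled fl/fl 2.

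Rspo3 (ENSMUSG00000019880, chr10:29452416-29535867, minus strand) was at 2.47, 2.56 and 1.32 CPM in Dot1l(+/+), at 1.21, 1.27 and 1.79 CPM in Dot1l(fl/+), and at 3.55 and 2.02 CPM in Dot1l(fl/fl). Dot1l(fl/fl) lay above Dot1l(fl/+) and overlapped Dot1l(+/+), on 28 to 90 counts per library. Its log2 fold change in Dot1l(fl/fl) was 0.97 ± 0.61 (SE) against Dot1l(fl/+) and 0.40 ± 0.61 against Dot1l(+/+). Without the library labelled fl/fl 2 these were 1.32 and 0.75, and without Dot1l(fl/fl) 1 they were 0.50 and -0.07.

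Wls (ENSMUSG00000028173, chr3:159839672-159938664, plus strand), which escorts lipid-modified Wnts to the plasma membrane, was at 25.8, 30.6 and 35.1 CPM in Dot1l(+/+), at 19.6, 39.5 and 31.4 CPM in Dot1l(fl/+), and at 29.2 and 41.3 CPM in Dot1l(fl/fl). All 3 genotypes overlapped. The log2 fold change in Dot1l(fl/fl) against Dot1l(+/+) was 0.21 ± 0.23 (SE) and was -0.06 without the library labelled fl/fl 2. Porcn, the acyltransferase that acts before Wls, was at 34.2 to 35.9 CPM in Dot1l(+/+), 30.7 to 40 CPM in Dot1l(fl/+), and 40.2 and 34.3 CPM in Dot1l(fl/fl). The carrier and the acyltransferase overlapped between Dot1l(+/+) and Dot1l(fl/fl), where Wnt7b and Wnt5a did not. Of all tested genes, 23.7% did not overlap in this comparison, and Wnt7b was selected on it, so nothing is read from this contrast.

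**Figure D3:**
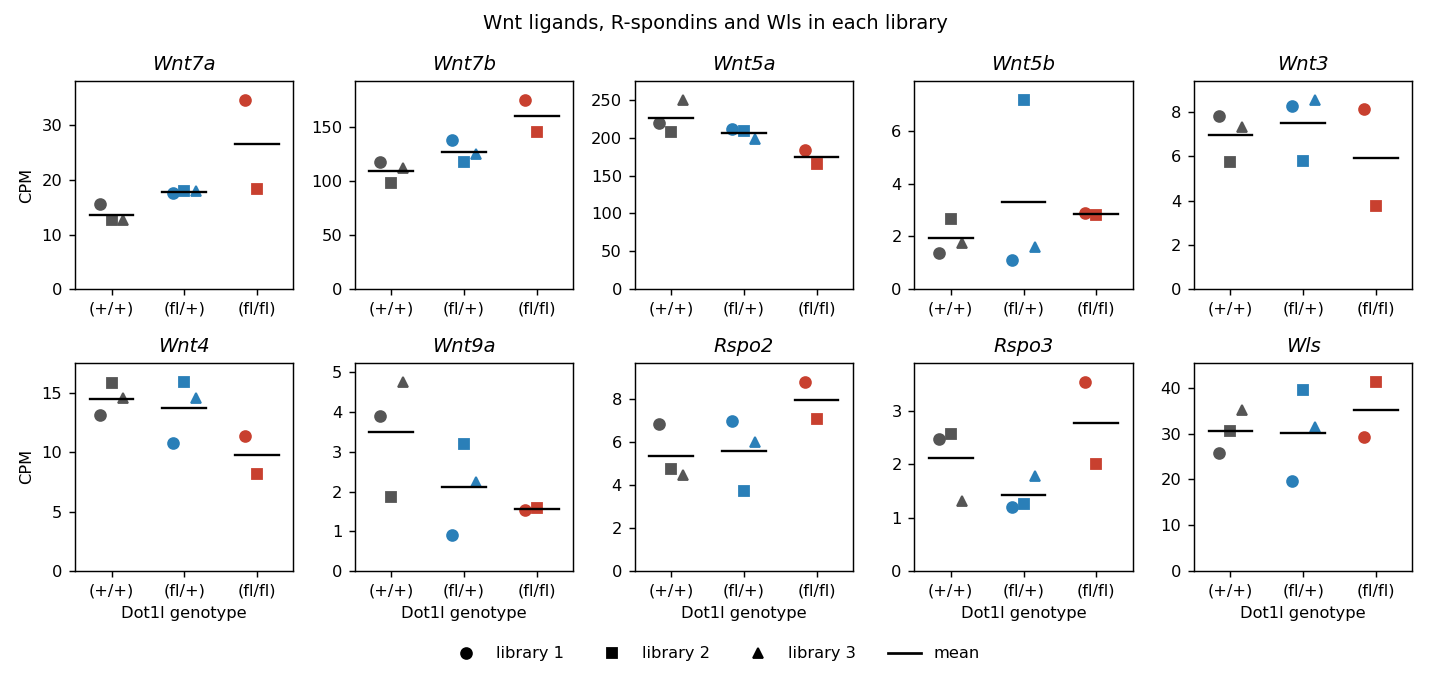
CPM (vertical axis, from 0) of the 10 members in each library (points, shaped by library number) by Dot1l genotype, with group means as bars. Wnt7a and Wnt7b are higher in each Dot1l(fl/fl) library than in any Dot1l(+/+) library and Wnt5a is lower, while Wnt3, Rspo3 and Wls overlap.

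Over the list, members lay on both sides of 0. In Dot1l(fl/fl) against Dot1l(+/+), edgeR's quasi-likelihood test with Benjamini-Hochberg adjustment called 0 of the 10 members and 0 (0%) of 17988 genes, with 1667 genes at an unadjusted p under 0.05 and 183 genes called by DESeq2. The members' edgeR adjusted p ran from 0.147 (Wnt7b) to 0.935 (Wnt3). DESeq2 called Wnt7b and Wnt5a. At an unadjusted edgeR p under 0.05 there were 4 members, with Wnt7a and Wnt7b higher and Wnt5a and Wnt4 lower, where 9.27% of all genes passed. The libraries of the 2 genotypes did not overlap for 7 members, with Wnt7a, Wnt7b, Wnt5b and Rspo2 higher and Wnt5a, Wnt4 and Wnt9a lower, where 23.7% of all genes did not overlap. Since the members were chosen on this contrast, nothing is read from these shares. The members' median log2 fold change was 0.30, with 6 of 10 above 0 (0.40 without the library labelled fl/fl 2 and 0.17 without Dot1l(fl/fl) 1), and the median of all genes was -0.003 with 49.5% above 0.

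With 1 floxed allele, the members' median log2 fold change was 0.02, with 5 of 10 above 0. In Dot1l(fl/+) against Dot1l(+/+), edgeR called 0 members and 0 (0%) of all genes, with 903 genes at an unadjusted p under 0.05 (5.02%), none of them a member, and DESeq2 also called 0 genes. The members' edgeR adjusted p ran from 0.94 to 0.998. Wnt7a and Wnt7b were non-overlapping and higher, where 11.5% of all genes did not overlap. This comparison shares its control libraries with the previous one, so the values of the members in the 2 comparisons are not independent of each other.

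In Dot1l(fl/fl) against Dot1l(fl/+), edgeR called 0 members and 0 (0%) of all genes, with 723 genes at an unadjusted p under 0.05 (4.02%), and DESeq2 called 1 gene, which was not a member. The members' edgeR adjusted p was 0.998 throughout. Of the members, Wnt7a and Wnt7b (higher) and Wnt5a (lower) had an unadjusted p under 0.05. Non-overlapping libraries were found for Wnt7a, Wnt7b, Rspo2 and Rspo3 (higher) and Wnt5a (lower), where 19.8% of all genes did not overlap. The members' median was 0.01.

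**Figure D4:**
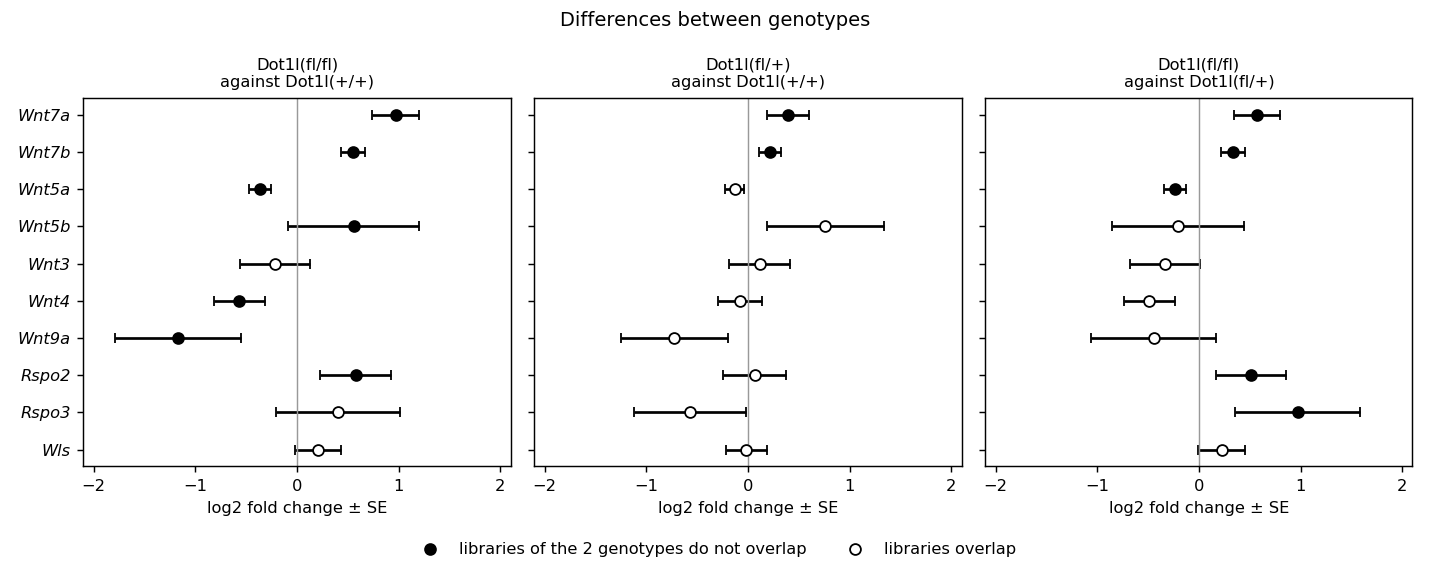
Log2 fold change with its SE (horizontal axis) of each member in the 3 comparisons of genotypes from the edgeR fit of 8 libraries. Filled points mark members whose libraries do not overlap between the compared genotypes, which were 7, 2 and 5 members in the left, middle and right panels.

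Leaving out a Dot1l(fl/fl) library moved the ligands unequally. Wnt5a stayed between -0.45 and -0.29, Wnt7b between 0.41 and 0.68, and Wnt9a between -1.48 and -0.88 over all single libraries left out in Dot1l(fl/fl) against Dot1l(+/+). Wnt3, Rspo3 and Wls changed sign.

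**Figure D5:**
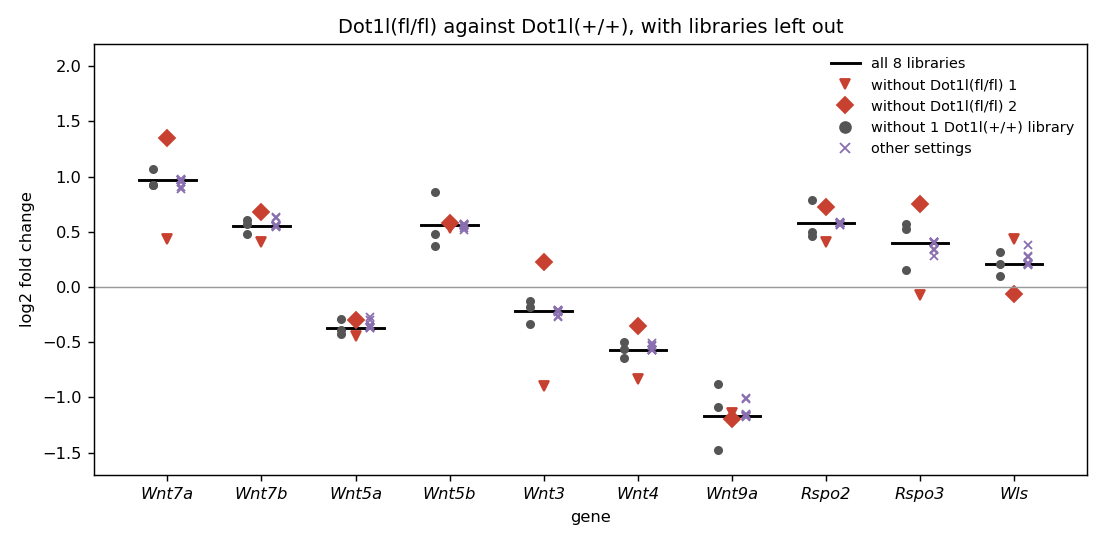
Log2 fold change of each member in Dot1l(fl/fl) against Dot1l(+/+) (vertical axis) with all 8 libraries (bars), without either Dot1l(fl/fl) library, without 1 Dot1l(+/+) library, and under other normalisations, filters and fits (crosses). Wnt7a runs from 0.43 to 1.35 and Wnt3 from -0.89 to 0.23 depending on which Dot1l(fl/fl) library is left out.

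The other 12 Wnt ligands were low or not detected. Wnt1, Wnt3a and Wnt8a had 0 counts in all 8 libraries, below 0.0687 to 0.2203 CPM. Wnt2 had 6 counts in a single library and Wnt10a 26 in a single library, while Wnt6, Wnt16 and Wnt9b did not exceed 0.547 CPM. Wnt10b was at 3.47 to 5.5 CPM in Dot1l(+/+), 4.89 to 6.75 in Dot1l(fl/+), and 3.28 and 4.25 in Dot1l(fl/fl), and Wnt2b at 0.907 to 4.04 CPM overall. Wnt8b was at 0 to 0.598 CPM in 7 libraries and at 2.74 CPM in the library labelled fl/fl 2. Of the other R-spondins, Rspo1 was at 0 to 1.25 CPM and Rspo4 at 0 to 0.879 CPM.

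Among the 7 tested genes of these other ligands and R-spondins, only the Dot1l(fl/fl) libraries of Wnt11 did not overlap Dot1l(+/+). Wnt11 is a mostly beta-catenin-independent ligand. It was at 1.24, 0 and 0.0925 CPM in Dot1l(+/+) 1 to 3, at 1.92, 1.58 and 1.44 CPM in Dot1l(fl/+), and at 2.79 and 4.46 CPM in Dot1l(fl/fl). The 3 genotypes did not overlap in pairs. The log2 fold change in Dot1l(fl/fl) against Dot1l(+/+) was 3.08 ± 1.02 (SE), with an edgeR adjusted p of 0.30, on 0 to 32 counts in the Dot1l(+/+) libraries. Without the library labelled fl/fl 2 the log2 fold change was 2.69. In Dot1l(fl/fl) against Dot1l(fl/+), 2 genes of the list were higher without overlap and 2 were lower, with Wnt10b among the lower.

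The machinery on either side of the ligands was read from lists of pathway genes in Dot1l(fl/fl) against Dot1l(+/+). No list had a gene with an edgeR adjusted p under 0.05. Of all tested genes, 9.27% were under this level before adjustment, in either direction. The lists were chosen with earlier results of these data known, so no list's count is weighed against this share. Of 9 genes for Wnt acylation, secretion and recycling, 2 had an unadjusted p under 0.05, both higher. These were Vps29 (104 ± 7.68 CPM, SD, n = 3, in Dot1l(+/+); 138 and 116.6 in Dot1l(fl/fl); log2 fold change 0.29 ± 0.12, SE) and Snx3 (102 ± 3.99 CPM; 129.9 and 112.5; 0.25 ± 0.11), which recycle Wls from endosomes. Without Dot1l(fl/fl) 1 they were at 0.16 and 0.14 and neither passed, and without the library labelled fl/fl 2 they were at 0.41 and 0.35. The list's median was 0.08, also without the library labelled fl/fl 2, and was 0.02 without Dot1l(fl/fl) 1.

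Of 21 receptors and co-receptors, 1 had an unadjusted p under 0.05, the Frizzled receptor Fzd10, at 10.5, 17.1 and 17 CPM in Dot1l(+/+) and 7.93 and 11.2 CPM in Dot1l(fl/fl), which overlapped (log2 fold change -0.65 ± 0.29, SE). Lgr4, an R-spondin receptor, was at 34.9 to 47.9 CPM in Dot1l(+/+) and at 32.5 and 37.9 in Dot1l(fl/fl) (-0.29 ± 0.17). Without the library labelled fl/fl 2 these were -0.91 and -0.41, and 3 receptors passed, all lower. Without Dot1l(fl/fl) 1 they were -0.42 and -0.18, and 2 receptors passed, 1 in each direction. The list's median was -0.08, with -0.15 and 0.01 in the same order. Of 15 tested antagonists, 1 had an unadjusted p under 0.05, the membrane inhibitor Apcdd1, at 44.7, 36.9 and 43.1 CPM in Dot1l(+/+) and at 33.7 and 24.8 CPM in Dot1l(fl/fl) (-0.50 ± 0.18). It was -0.30 without the library labelled fl/fl 2 and -0.75 without Dot1l(fl/fl) 1. Trabd2b, a Wnt-cleaving protease, had 0 counts in both Dot1l(fl/fl) libraries and at most 0.562 CPM elsewhere. The antagonists did not share a direction: their median was 0.11, with 8 of 15 above 0. It was 0.24 without the library labelled fl/fl 2 and -0.003 without Dot1l(fl/fl) 1.

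Of 23 genes of the beta-catenin pathway core, 7 had an unadjusted p under 0.05 and all 7 were lower, where 9.27% of all genes passed in either direction. Nothing is read from the count against this share, because the list was chosen with earlier results of these data known. They were the destruction complex genes Apc, Apc2 and Gsk3b, the beta-catenin co-activators Bcl9 and Bcl9l, and the co-repressors Tle1 and Tle3. These are both activators and inhibitors of the pathway. Tle3 was at 231.8, 198.4 and 231.5 CPM in Dot1l(+/+) and 161.8 and 172.5 in Dot1l(fl/fl) (-0.40 ± 0.11, SE), and Apc2 at 1072, 922.4 and 1130 CPM and at 844 and 859.5 (-0.29 ± 0.09). Without the library labelled fl/fl 2 they were -0.45 and -0.30, and 8 genes of the list passed, all lower. Without Dot1l(fl/fl) 1 there were 5, all lower, and Apc moved from -0.26 to -0.04. The list's median was -0.11, with -0.10 and -0.14 in the same order.

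Of 9 feedback and target genes, 0 had an unadjusted p under 0.05. Axin2, the usual reporter of beta-catenin signalling, was at 21.3, 19.6 and 17.2 CPM in Dot1l(+/+), 16.2, 16.3 and 14.7 CPM in Dot1l(fl/+), and 13.7 and 16.9 CPM in Dot1l(fl/fl). Both genotypes with a floxed allele lay below Dot1l(+/+), with log2 fold changes of -0.34 ± 0.21 (SE) in Dot1l(fl/fl) and -0.30 ± 0.19 in Dot1l(fl/+). The edgeR adjusted p was 0.67 and 0.94 in the same order. Libraries did not overlap for 23.7% and 11.5% of all genes in these comparisons. The Axin2 value in Dot1l(fl/fl) was -0.50 without the library labelled fl/fl 2 and -0.19 without Dot1l(fl/fl) 1. Myc, another target, was at 17.3 to 19 CPM in Dot1l(+/+) and at 16.8 and 9.79 in Dot1l(fl/fl) (-0.44 ± 0.24), and was at -0.11 without the library labelled fl/fl 2 and at -0.89 without Dot1l(fl/fl) 1. The list's median was -0.34, and it was -0.11 without the library labelled fl/fl 2 and -0.23 without Dot1l(fl/fl) 1. The list did not share a direction, with 4 of 9 genes above 0 in Dot1l(fl/fl) and 4 of 9 in Dot1l(fl/+), each against Dot1l(+/+).

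The genes whose log2 CPM followed the members most closely over the 8 libraries were sought among 11342 genes with a mean of at least 5 CPM. For Wnt7a they were Klhl22 (Pearson's r = 0.977), Got2 (0.975) and Serpine2 (0.97). For Wnt7b they were Emc4 (0.953), Olfm3 (0.934) and Nop56 (0.933). For Wnt5a they were Dnajc6 (0.982), Zfp692 (0.979) and Zkscan16 (0.976). The best match was Tigd5 for Wnt5b (0.963), Zfp658 for Wnt3 (0.968), 5930412G12Rik for Wnt4 (0.952), Dchs1 for Wnt9a (0.96), Tm7sf2 for Rspo2 (0.963), Tmem87a for Rspo3 (0.952) and Tbc1d32 for Wls (0.963). With 8 libraries that share depth and genotype, such values describe likeness only, and no member was among the 3 closest genes of another. Wnt5b, Wnt9a and Rspo3 averaged under 5 CPM and were not among the genes searched, so they could not appear as a closest gene.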

How the data were processed

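The files deposited by the authors hold raw read counts for each Ensembl gene, 1 file a library, and tables of their own DESeq2 comparisons (fold changes and p-values, not used here beyond the gene symbols). Per the study's methods, midbrains were papain-dissociated, sorted cells were taken into Trizol, libraries were made with a strand-preserving kit, and reads were mapped to GRCm38.p4. The submitters' processing notes name bcl2fastq 2.17, Trimmomatic 0.30 and DESeq2 1.10.1. The aligner and counter are not given in the sources used here.

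Counts were tested with edgeR 4.0.16 (R 4.3.3; quasi-likelihood F test, TMM, filterByExpr, 17988 genes, Benjamini-Hochberg over all of them, threshold 0.05). The 3 genotypes entered a single fit without covariates. The SE is the absolute log2 fold change over the square root of F. The scripts were tested on simulated data. The members and lists were chosen with earlier results of these data known. Genes were named by rule: all members, Dot1l, the other Wnt and R-spondin genes with counts, the 2 genes of smallest p per pathway list, and the 3 closest genes per member. The 7 beta-catenin core genes, Porcn and 3 ligands without counts were named after their values were seen. Log2 CPM used a prior count of 2. Tiki1 had no match. Libraries of 1 genotype differed beyond sampling noise (chi-square per degree of freedom 16.98 to 40.47), so each was counted. P-values measure the spread between pools of embryos.

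Alternatives were other size factors (RLE, upper quartile), testing unfiltered genes or those averaging 50 counts or more, DESeq2 1.42.0, fits of 2 genotypes alone, a replicate block, an exon length and GC offset (splines of 4 degrees of freedom), block and offset together, and leaving out each library.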

Additional observations from a re-analysis of the deposited data

How the results depend on the processing

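In Dot1l(fl/fl) against Dot1l(+/+), the count of genes called was 0 in the edgeR fit and with RLE factors, upper-quartile factors or 2 genotypes alone. It was 106 with no filter, 2 with a mean count of at least 50, 183 with DESeq2, 6 with the exon length and GC offset, and 0 to 75 with 1 library left out (75 without Dot1l(+/+) 2, 50 without the library labelled fl/fl 2, 4 without Dot1l(fl/fl) 1). The count of members called was 2 with no filter (Wnt7a, Wnt7b), 2 with DESeq2 (Wnt7b, Wnt5a), 1 with the offset (Wnt7b), and 0 to 2 with 1 library left out (Wnt7a and Wnt7b without the library labelled fl/fl 2). In Dot1l(fl/+) against Dot1l(+/+) the gene count moved only with no filter, to 11. In Dot1l(fl/fl) against Dot1l(fl/+) it was 14 with no filter, 1 with DESeq2 and 0 to 7 with 1 library left out. The cause of these differences was not tested. Where a Dot1l(fl/fl) library was left out, the remaining one was assumed to vary like the other groups.

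Pools of different genotype can share litters, but no source used here says that the replicate number marks them. Between Dot1l(+/+) and Dot1l(fl/+), deviations from the genotype means correlated at 0.045, -0.007 and 0.038 for libraries 1 to 3 of the same number. Where the number differed, they correlated at -0.051 to 0.011. The 2 Dot1l(fl/fl) libraries deviate from their own mean by equal and opposite amounts, so their correlations cannot show a pairing. Whether the number marks shared litters was not settled. With the replicate block, Dot1l(fl/fl) gave 6 genes against Dot1l(+/+) and 4 against Dot1l(fl/+), and 0 members. With the replicate block and the offset together, these counts were 15 and 5 genes, with 1 member, Wnt7b, in the first.

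Of 510 log2 fold changes of members under these alternatives, 497 moved by less than 1 SD between libraries and 13 by more. Sign changes numbered 19, for Wnt3, Wnt4, Wnt5b, Rspo2, Rspo3 and Wls. Leaving out a library of the genotype outside a comparison could hardly move its values, and other size factors moved them little. The count of 497 is therefore not a measure of stability. Wnt7a, Wnt7b, Wnt5a and Wnt9a kept their sign under all the alternatives. Wnt9a, Wnt5b and Rspo3 rested on 22 to 206 counts per library.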
